A study of Mus musculus with 2 samples.

Results

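The 7 genes described here encode the mouse receptors for the Fc part of IgG, adaptors of these and of other receptors, and a kinase. They are the activating receptors Fcgr1, Fcgr3, and Fcgr4, the inhibitory receptor Fcgr2b, the adaptors Fcer1g and Tyrobp, and the kinase Syk. They were taken as a fixed list of 7 of the 20299 genes in the deposited matrix, and all 7 were found in it by symbol. Nephrotoxic nephritis (NTN) is a model of glomerulonephritis in which antibody against the glomerulus is injected, so that IgG is deposited in the kidney and can meet Fc receptors on leukocytes. C57BL/6 mice aged 8 weeks were primed with 200 μg of sheep IgG in Freund's complete adjuvant, and sheep nephrotoxic serum followed after 4 days, at 2 μL/g according to the sample labels and at another dose in the study's methods. Kidney cells from these mice went into 1 droplet-based single-cell library of WT mice and 1 library of mice that lack VISTA, an immune checkpoint protein encoded by Vsir, in the germ line (Vsir-/-). The labels state that CD45+ cells were sorted for the WT library and that the Vsir-/- library held kidney cells of every kind, whereas the methods describe sorting of CD45+ cells in general. Genotype and sort therefore cannot be told apart, how many mice were pooled per library was not given in the sources used here, and no test between the genotypes is possible with 1 library each.

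IgG complexes that cross-link an activating Fcγ receptor lead to phosphorylation of the immunoreceptor tyrosine-based activation motif (ITAM) of its partner chain, the Fc receptor γ chain encoded by Fcer1g. Syk docks on the phosphorylated motif and starts phagocytosis, the oxidative burst, and cytokine release. FcγRIIB, encoded by Fcgr2b, carries an inhibitory motif in its own tail and dampens the same cascade, and it is the only classical IgG receptor of B cells. DAP12, encoded by Tyrobp, is the equivalent adaptor for other myeloid and NK cell receptors and also signals through Syk.

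The libraries held 5470 WT cells with 32799550 UMIs (median of 4726.5 per cell) and 1844 Vsir-/- cells with 18601189 UMIs (median of 6673 per cell). Levels are UMIs per 1000000 UMIs of the same cells (CPM), with exact Poisson 95% intervals, and ratios between libraries are on the log2 scale with exact conditional 95% intervals. Counting error is the only error in these intervals, which do not hold differences between mice. Vsir itself was at 130 CPM in the WT library and at 0.43 CPM (8 UMIs) in the Vsir-/- library, and Ptprc, which encodes CD45, had a UMI in 94.2% and 73.6% of cells. The libraries differed in foreign transcripts. Over the 6 clusters compared below, 20 kidney tubule markers summed to between 14.5 and 302 CPM in the WT library and to between 1474 and 6197 CPM in the Vsir-/- library. Conversely, 10 B cell markers summed to between 857 and 5407 CPM in WT macrophages and neutrophils and to between 87.5 and 315 CPM in their Vsir-/- counterparts. In the 3 macrophage clusters, 10 neutrophil markers summed to between 1773 and 4467 CPM in the WT library and to between 137 and 380.5 CPM in the Vsir-/- library. The clusters are those named by the authors: kidney-resident macrophages (R1), infiltrating macrophages (M2-like R2 and Other R2), neutrophils, NK cells, and B cells, among 16 in all. C1qa, a complement gene of resident macrophages, was at 4570 and 5366 CPM in R1 of the WT and Vsir-/- libraries and at no more than 378 CPM in both R2 clusters. In the cluster called pDC, 8 plasmacytoid markers summed to 2558 and 2042 CPM, the most of any cluster in each library, and 10 dendritic cell markers summed to 22361 and 41932 CPM, against 69405 and 59825 CPM in R1. Only 5 cell barcodes were shared between the libraries.

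In the GRCm38 assembly, 4 of the 7 genes lie within 276 kb of chromosome 1, which holds Fcgr2b (chr1:170958617-170976547, minus strand), Fcgr4 (chr1:171018920-171029761, plus strand), Fcgr3 (chr1:171051174-171064935, minus strand), and Fcer1g (chr1:171229572-171234365, minus strand). Fcgr1 (chr3:96282909-96293969), Tyrobp (chr7:30413760-30417585), and Syk (chr13:52583173-52648792) lie elsewhere. The deposited files hold symbols without coordinates, and these positions come from the GENCODE M21 annotation. All 7 genes were found in myeloid clusters, although not only there, and Syk was highest in WT B cells. The RefSeq promoters (250 bases before to 50 after a start site, GRCm38.p6) were searched on both strands. The search was for GAGGAA, the core of the site of the myeloid transcription factor PU.1, and for TTCNNNGAA, the site of STAT factors activated by interferon. Promoters were found for 6 of the 7 members, Tyrobp being the exception. Counting a gene when any of its promoters matched, GAGGAA was present in 4 of these 6 members and in 31.3% of all 27025 genes with a promoter, and TTCNNNGAA in 1 (Fcgr1) and in 9.55%. With the first listed promoter of each gene only, GAGGAA was present in 3 of the 6 and in 28.3% of genes. The matched stretches are shown because the match lies between positions −55 and −1 from a start site, as RefSeq gives it, in all 4 members. GAGGAA, or its reverse complement TTCCTC, is in capitals. Each line runs 5′ to 3′ on the strand of the gene.
Fcgr1, chr3:96293970-96294069, minus strand: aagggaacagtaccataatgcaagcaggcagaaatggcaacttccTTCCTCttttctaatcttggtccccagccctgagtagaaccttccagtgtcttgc
Fcgr3, chr1:171059404-171059503, minus strand: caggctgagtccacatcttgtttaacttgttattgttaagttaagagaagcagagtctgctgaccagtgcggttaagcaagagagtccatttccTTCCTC
Fcgr4, chr1:171018892-171018921, plus strand: aaggctatttacTTCCTCtcttctagtcaa
Syk, chr13:52596852-52596881, plus strand, second of 2 start sites: tgtcttgcttgctgacactttGAGGAAaag
Neither Fcgr2b nor Fcer1g had GAGGAA in its window. A match describes the letters only, and binding was not measured.

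Fcgr1 encodes FcγRI, the high-affinity receptor that binds monomeric IgG. In the WT library it was highest in M2-like R2 (298 CPM, 282 to 315) and R1 (289 CPM, 250.6 to 332), whose intervals overlapped. The pDC cluster followed at 132 CPM and Other R2 at 67.1 CPM, the latter overlapping with 25 basophils (20.6 CPM). In the Vsir-/- library R1 stood alone at the top (388 CPM, 359 to 420), followed by M2-like R2 (188 CPM, 168 to 210.0), the pDC cluster (55.8 CPM), and Other R2 (29.8 CPM), the last of which overlapped. In WT cells without a B or T cell UMI, R1 (473 CPM, 391 to 568) stood above M2-like R2 (311 CPM, 286 to 339) as well. Fcgr1 was thus a macrophage gene in both libraries. The 3 macrophage clusters held 93.9% of its UMIs in the WT library, where they made up 13.9% of cells, and 91.6% in the Vsir-/- library, where they made up 29.1% of cells.

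Fcgr3 encodes FcγRIII, a low-affinity receptor for immune complexes that cannot signal without the γ chain. It was highest in WT neutrophils at 429.7 CPM (404 to 456), followed by R1 at 331 CPM, M2-like R2 at 298 CPM, and basophils at 282 CPM, and only the first of these gaps exceeded counting error. In the Vsir-/- library R1 came first at 498 CPM (464 to 534), ahead of neutrophils at 344 CPM and M2-like R2 at 304 CPM, whose intervals overlapped. In WT cells without a B or T cell UMI, R1 (535 CPM, 447 to 634) and neutrophils (515 CPM, 478 to 555) overlapped, so their WT order rests on the cells with such UMIs. Fcgr3 was also the activating receptor with the most UMIs in NK cells (135 of the 149 in the WT library), where it mediates killing of antibody-coated targets (35.9 and 27.6 CPM).

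Fcgr4 encodes FcγRIV, which binds IgG2a and IgG2b with intermediate affinity. Its order differed from that of Fcgr3. Other R2 (383 CPM) and R1 (367 CPM) shared the top place in the WT library, and R1 (505 CPM) and Other R2 (489 CPM) shared it in the Vsir-/- library. The 2 clusters also overlapped in WT cells without a B or T cell UMI (517 and 612 CPM). Neutrophils were next (166 and 138 CPM), and M2-like R2 was low (59.2 and 70.4 CPM). Among the macrophages the receptors therefore divided the clusters. M2-like R2 had Fcgr1 and Fcgr3 with little Fcgr4, Other R2 had Fcgr4 with little Fcgr1 and Fcgr3, and R1 had all 3. Other R2 was also the cluster with the highest Ace and Spn, which mark patrolling monocytes (Ace at 496 and 456 CPM, against 96.3 and 56.1 CPM in M2-like R2), whereas M2-like R2 had the highest Ly6c2, a marker of inflammatory monocytes (2972 and 1673 CPM, against 220.1 and 91.9 CPM in Other R2).

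Fcgr2b, the inhibitory receptor, was highest in R1 of both libraries (237 CPM, 203 to 277, in the WT library and 278 CPM, 253 to 305, in the Vsir-/- library). M2-like R2 was next at 169 and 227 CPM, overlapping with 25 basophils (131 CPM) in the WT library. The B cell cluster, in whose B cells FcγRIIB restrains the B cell receptor, had 68.9 CPM (60.5 to 78.2) and 66.7 CPM, close to the levels in Other R2 (53.9 and 94.5 CPM) and the pDC cluster (64.2 and 87.1 CPM). Of the 35 UMIs behind its Vsir-/- value, 23 lay in cells without a UMI of Cd79a, which encodes a chain of the B cell receptor. The Vsir-/- cells with a Cd79a UMI had 41.5 CPM (21.4 to 72.5), from 12 UMIs. Because B cells were numerous in the WT library, they held 17.4% of its Fcgr2b UMIs. Neutrophils were low at 16.5 and 14.2 CPM.

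Fcer1g, the γ chain, was highest in Other R2 (3447 CPM, 3346 to 3550, and 4405 CPM, 4258 to 4556) and lay between 1789 and 2759 CPM in R1, M2-like R2, neutrophils, and NK cells of both libraries. Tyrobp was highest in WT basophils (4318 CPM), in which 25 cells gave 628 UMIs, and in neutrophils (4039.9 and 4099 CPM). It lay between 1743 and 3215 CPM in the macrophage clusters and NK cells. Both adaptors thus extended to NK cells, which had few UMIs of Fcgr1 and Fcgr4 (5 and 9 over 594 WT cells). When each cell was thinned to 1000 UMIs, 90.0% of WT NK cells and 82.1% of Vsir-/- NK cells had an Fcer1g UMI, against 99.2% and 98.5% without thinning. Non-EM-like CD8+ T cells, which should lack the γ chain, gave background shares of 1.52% and 2.00% after thinning and of 8.19% and 6.00% without it.

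Syk had another order again. It was highest in WT B cells, where it transmits the B cell receptor signal (411 CPM, 390.2 to 433), followed by neutrophils (283 CPM) and Other R2 (271 CPM), whose intervals overlapped. In the Vsir-/- library neutrophils (225 CPM), Other R2 (206 CPM), B cells (151 CPM), and M2-like R2 (150.4 CPM) could not be ordered beyond counting error between neighbors. The Vsir-/- B cell cluster was mixed. Syk was at 252 CPM (198 to 317) in its 44 cells with a Cd79a UMI and at 25.5 CPM in the 44 without. R1 had 176 and 91.8 CPM, and only in the Vsir-/- library was it below both other macrophage clusters beyond counting error. The CD4+ and CD8+ T cell clusters were at 17.1 CPM or below in the WT library. The cluster called NKT was at 169 CPM, and 10 B cell markers summed to 9209 CPM in it.

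**Figure D1:**
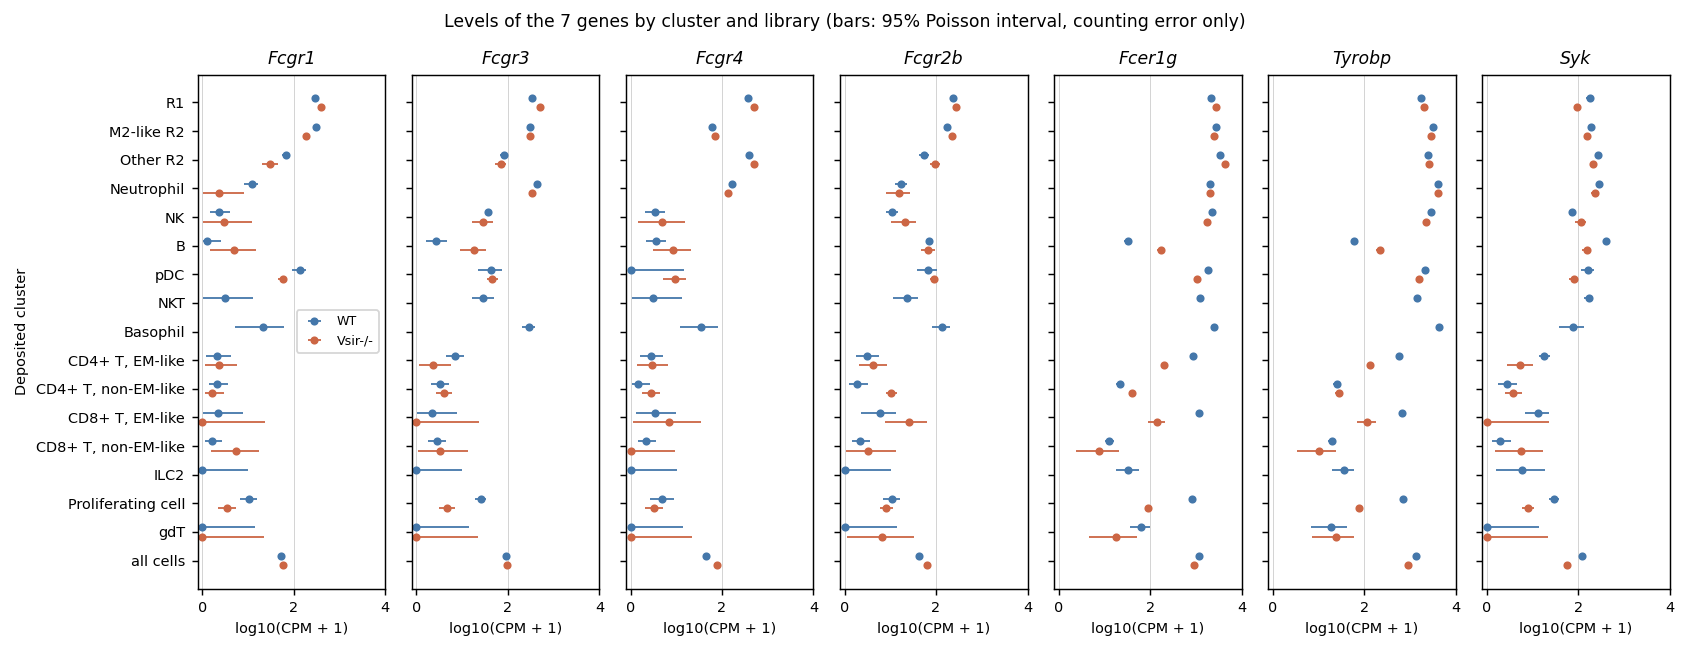
Levels of the 7 genes in each deposited cluster with at least 20 cells, on a log10(CPM + 1) axis, for the WT (blue) and Vsir-/- (red-orange) libraries. Points are pooled UMIs of 1 library and bars are 95% Poisson intervals. Fcgr1 was found mostly in macrophage clusters, Fcgr3 and Fcgr4 extended to neutrophils, Fcer1g and Tyrobp extended to NK cells, and Syk peaked in WT B cells at 411 CPM.

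Cells were also examined for more than 1 receptor gene after thinning to 1000 UMIs. In R1, 31.2% of 109 WT cells and 41.0% of 212 Vsir-/- cells had UMIs of at least 2 of the 4 receptor genes. The share was lower in M2-like R2 (15.9% and 14.5%), Other R2 (10.0% and 7.87%), and neutrophils (7.75% and 8.50%). The Clopper-Pearson intervals of the genotypes overlapped in each of these clusters. Most receptor transcripts of a cell go unseen at this depth, and transcripts from other cells can add to the shares, so they are not shares of expressing cells. In 659 WT non-EM-like CD8+ T cells, which should lack the receptors, each receptor gene had a UMI in at most 0.152% of cells after thinning. Without thinning, each receptor gene alone had a UMI in 62.1% to 79.3% of WT and 62.0% to 77.6% of Vsir-/- R1 cells. Fcgr2b was seen in 33.8% of WT R1 cells that had an activating receptor UMI and in 18.2% of those that had none. The corresponding shares in Vsir-/- R1 cells were 27.4% and 16.4%, and the Clopper-Pearson intervals of the shares overlapped in both libraries.

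**Figure D2:**
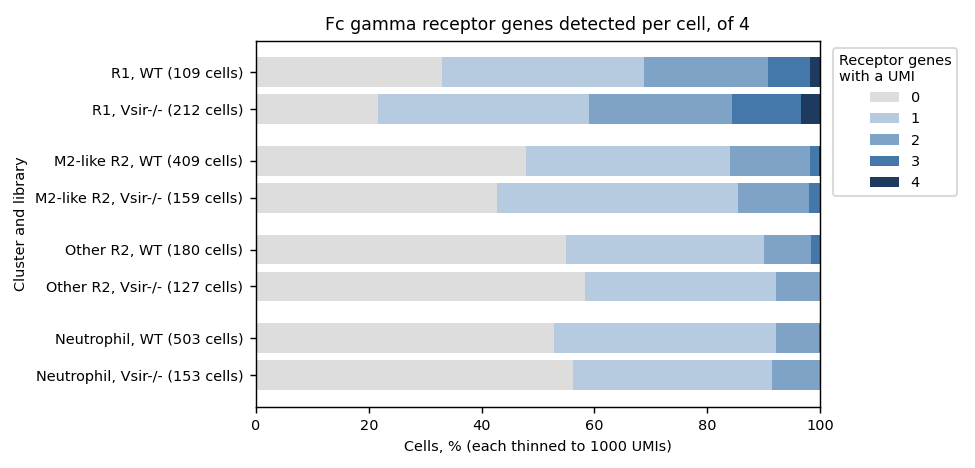
Share of cells (%) in which 0 to 4 of the 4 Fcγ receptor genes had a UMI, after each cell was thinned to 1000 UMIs, by cluster and library. Darker segments stand for more genes. R1 cells had the most genes per cell in both libraries.

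The genotypes were then compared within R1, M2-like R2, Other R2, neutrophils, NK cells, and B cells. Genes with at least 20 UMIs over both libraries were kept, 0.5 UMIs were added before the 2-fold limit was applied, and a gene past 2-fold is only a description of these 2 libraries. In R1 all 7 members were kept and 0 passed 2-fold, whereas 13.6% of 8862 genes were at least 2-fold higher and 8.78% at least 2-fold lower in the Vsir-/- library. The 6 members other than Syk were higher in the Vsir-/- library, although the interval of Fcgr2b included 0 (0.23, −0.03 to 0.49). After thinning to 1000 UMIs the ratio of Fcgr2b was −0.27. Fcgr3 had 331 CPM in the WT library and 498 CPM in the Vsir-/- library, a log2 ratio of 0.59 (0.38 to 0.81), and Fcgr1 gave 0.43 (0.19 to 0.66). Syk was lower, with 176 and 91.8 CPM (log2 ratio of −0.94, −1.29 to −0.58). The median of the 7 was 0.33, against −0.01 over all genes.

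This difference in R1 went with the lymphocyte transcripts in the WT cells. Of 116 WT R1 cells, 56 had a UMI of a T cell receptor or CD3 gene, Cd79a, or Ms4a1, against 14 of 237 Vsir-/- cells. In the remaining 60 WT and 223 Vsir-/- cells, each of the 6 members changed sides, although only the interval of Tyrobp then excluded 0. Fcgr3 had 535 and 503 CPM (log2 ratio of −0.09, −0.36 to 0.19), Fcgr1 had 473 and 385 CPM (−0.30, −0.59 to 0.0017), Fcgr4 had 612 and 512 CPM (−0.26, −0.51 to 0.004), and Fcgr2b had 343 and 282 CPM (−0.28, −0.62 to 0.07). Fcer1g had 2893 and 2769 CPM (−0.06, −0.18 to 0.05) and Tyrobp had 2391 and 2061 CPM (−0.21, −0.34 to −0.08). Syk kept its side, with 163 and 91.7 CPM (−0.83, −1.35 to −0.29). Syk was therefore the single member of the 7 that was lower in Vsir-/- R1 in both sets of cells with an interval that excluded 0. The 60 WT cells were shallow, with a median of 3982 UMIs, against 6477 in the 56 WT cells left out and 5970 in the 223 Vsir-/- cells. The WT cells kept in this way were also shallower than those left out in Other R2 (3760 and 8345.5) and neutrophils (3190 and 5648). The part of depth in these differences was not tested.

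In M2-like R2, 0 of 7 members passed 2-fold, against 8.11% of 9751 genes higher and 7.61% lower. Fcgr1 was lower in the Vsir-/- library (298 and 188 CPM, log2 ratio of −0.67, −0.85 to −0.49) and Fcgr2b was higher (169 and 227 CPM, 0.42, 0.24 to 0.60). Fcgr3 was level at 298 and 304 CPM, and Fcgr4 gave 0.25 (−0.08 to 0.57). Syk (−0.35, −0.55 to −0.14), Tyrobp (−0.18, −0.23 to −0.13), and Fcer1g (−0.13, −0.18 to −0.08) were lower. Only 183 of 456 WT cells had no B or T cell UMI, against 154 of 168 Vsir-/- cells. The differences in Fcgr1 and Fcgr2b held in cells without a B or T cell UMI (−0.79 and 0.38). Those in Syk, Tyrobp, and Fcer1g held there as well (−0.27, −0.37, and −0.29), and Fcgr4 was higher there (0.61, 0.17 to 1.04). The difference in Fcgr2b was seen in cells rich in C1q UMIs and not beyond counting error in the others. In the Vsir-/- library 44 of 168 cells had at least 5 UMIs of C1qa, C1qb, and C1qc together, against 7 of 456 WT cells. Fcgr2b was at 250 CPM in the 7 WT cells (32 UMIs) and 405 CPM in the 44 Vsir-/- cells (0.70, 0.15 to 1.29). Fcgr1 was at 320 and 155 CPM in them (−1.04, −1.64 to −0.44). Among the other cells, a split chosen after the values were seen, Fcgr2b was at 167 CPM in the WT library and 171 CPM in the Vsir-/- library (0.04, −0.19 to 0.26), and Fcgr1 was at 298 and 198 CPM (−0.59, −0.79 to −0.39). Fcgr4 was at 52.5 and 47.8 CPM in these other cells (−0.14, −0.57 to 0.28). In the 7 WT and 44 Vsir-/- cells it was at 281 and 143 CPM (−0.98, −1.60 to −0.33). With each cell of the cluster weighted equally, the log2 ratio of Fcgr4 was −0.28.

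In Other R2, 1 of 7 members passed 2-fold, against 6.71% of 7555 genes higher and 9.52% lower. This was Fcgr1, with 67.1 CPM in the WT library and 29.8 CPM (23 UMIs) in the Vsir-/- library (log2 ratio of −1.17, −1.91 to −0.50), and it was −1.43 in cells without a B or T cell UMI. Fcgr2b was higher (53.9 and 94.5 CPM, 0.81, 0.32 to 1.31) and stayed so in those cells (57.1 and 98.2 CPM, 0.78, 0.11 to 1.4998). Fcgr4 (0.35), Fcer1g (0.35), and Tyrobp (0.13, 0.05 to 0.21) were higher over all cells. In cells without a B or T cell UMI, Fcgr4 gave −0.09 (−0.33 to 0.16), and Fcer1g (−0.12, −0.20 to −0.04) and Tyrobp (−0.29, −0.39 to −0.19) were lower. Syk was lower over all cells (−0.40, −0.68 to −0.12) but not beyond counting error in those cells (224 and 213 CPM, −0.07, −0.45 to 0.31). Thus Fcgr1 was lower in both infiltrating macrophage clusters of the Vsir-/- library, and Fcgr2b was higher in both over all cells, though not in M2-like R2 without the C1q-bearing cells. Other markers also differed between the libraries, not always in the same direction in both clusters. Dendritic cell markers summed to 4388 and 17615 CPM in M2-like R2 and to 7265 and 6223 CPM in Other R2, and neutrophil markers to 4467 and 344 CPM and to 3728 and 380.5 CPM. Their part in the differences was not tested.

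In neutrophils, 1 of 7 members passed 2-fold, against 9.99% of 7197 genes higher and 10.6% lower. This was again Fcgr1, which rested on 27 UMIs in the WT library and 1 UMI in the Vsir-/- library (10.9 and 1.29 CPM, log2 ratio of −3.08, −8.44 to −0.48). Fcgr3, the main receptor of these cells, had 429.7 and 344 CPM (−0.32, −0.52 to −0.13), and Syk had 283 and 225 CPM (−0.33, −0.57 to −0.09). Over all cells Fcer1g gave −0.02 (−0.10 to 0.06), Tyrobp 0.02 (−0.04 to 0.08), and Fcgr4 −0.27 (−0.59 to 0.04). After thinning to 1000 UMIs the ratio of Fcgr4 was 0.09. Of the neutrophils, 363 of 524 WT cells and 147 of 158 Vsir-/- cells had no B or T cell UMI. In these cells Fcgr3 (515 and 346 CPM, −0.58) and Syk (331 and 231 CPM, −0.52) stayed lower, and Fcgr1 had 7 and 1 UMIs. Fcgr4 (−0.57, −0.93 to −0.23), Fcer1g (−0.19, −0.28 to −0.10), and Tyrobp (−0.23, −0.29 to −0.16) were lower there as well.

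In NK cells, 1 of the 5 members kept passed 2-fold, against 9.86% of 8963 genes higher and 7.01% lower. It was Fcgr2b, with 38 and 10 UMIs (10.1 and 19.7 CPM), and it passed only because of the added 0.5 UMIs, since its ratio without them was 0.96 (−0.21 to 2.00). Fcer1g (2217 and 1789 CPM, −0.31, −0.41 to −0.21) and Tyrobp (2906 and 2221 CPM, −0.39, −0.48 to −0.30) were lower and Syk was higher (70.2 and 112 CPM, 0.68, 0.24 to 1.097) in the Vsir-/- library. In cells without a myeloid UMI (154 and 27 cells) these 3 differences kept their sides (−0.26, −0.32, and 0.88), whereas Fcgr2b had 11 and 1 UMIs. Tubule markers were at 302 and 3265 CPM in these cells. With tubule and mitochondrial UMIs taken out of the denominator, the ratios of Fcer1g, Tyrobp, and Syk were −0.29, −0.37, and 0.70.

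In B cells, 3 of the 4 members kept passed 2-fold, against 16.3% of 9094 genes higher and 15.9% lower. Fcer1g (31.9 and 172 CPM) and Tyrobp (59.7 and 223 CPM) were higher and Syk was lower (411 and 151 CPM, −1.45, −1.79 to −1.12) in the Vsir-/- library. The cells of this cluster were not alike. Cd79a, a chain of the B cell receptor, had a UMI in 966 of 969 WT cells but in 44 of 88 Vsir-/- cells, and Igkc was at 10268 CPM in the WT cells and 58896 CPM in the Vsir-/- cells. In the 44 Vsir-/- cells with a Cd79a UMI, a selection chosen after the values were seen, Fcer1g was at 13.8 CPM and Tyrobp at 55.3 CPM, against 31.9 and 59.8 CPM in WT cells, so that neither was higher. Syk was 411 and 252 CPM there (log2 ratio of −0.70, −1.06 to −0.36). Fcgr2b was 69.0 and 41.5 CPM, with 12 UMIs behind the latter (−0.73, −1.71 to 0.10). In cells of the cluster without a myeloid UMI, Fcer1g (23.8 and 75.7 CPM, from 26 and 9 UMIs) and Tyrobp (47.6 and 109 CPM) were still higher in the Vsir-/- library, and the interval for Syk reached 0 (−0.47, −0.99 to 0.0054).

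**Figure D3:**
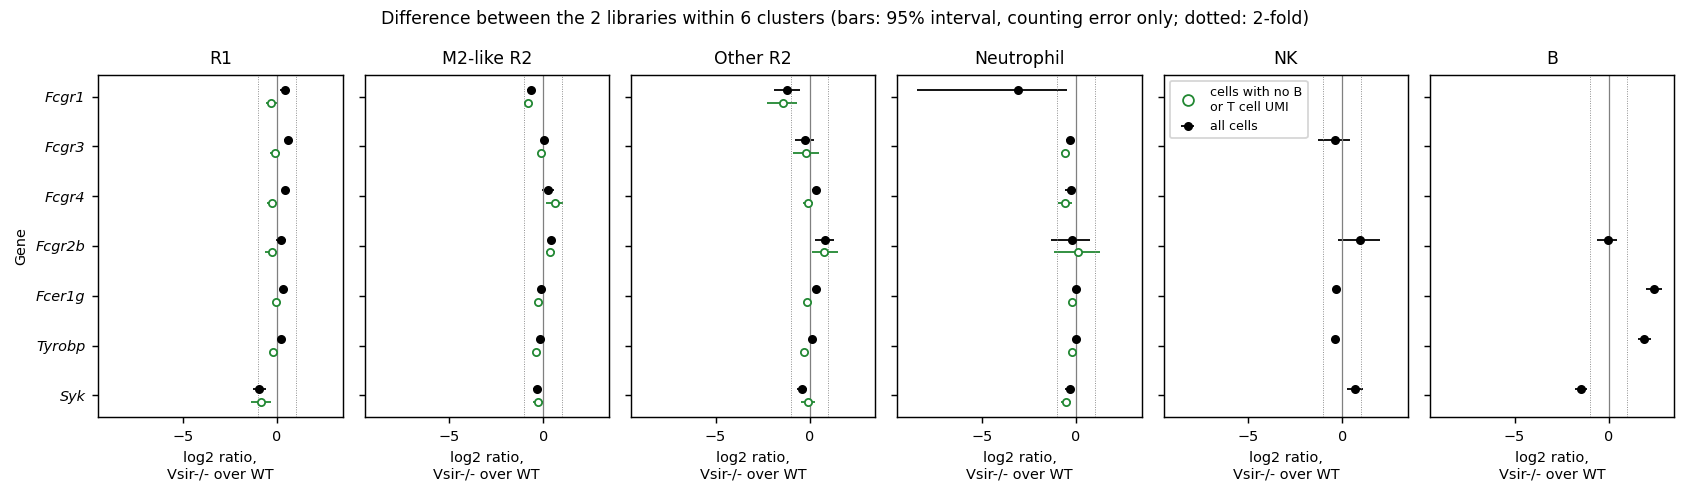
Log2 ratio of CPM between the Vsir-/- and WT libraries for each member with at least 20 UMIs in 6 clusters. Black points use all cells, green open points use cells with no B or T cell UMI (macrophages and neutrophils), bars are 95% intervals for counting error, and dotted lines mark 2-fold. In R1 the black points of 6 members lie right of 0 and the green points left of it, and in both R2 clusters Fcgr1 lies left and Fcgr2b right of 0 in both sets.

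The balance of activating and inhibitory receptors was expressed as UMIs of Fcgr1, Fcgr3, and Fcgr4 together per UMI of Fcgr2b. Capture differs between genes, so the ratio is read between clusters and libraries and not as a number of molecules. It was highest in neutrophils (36.7 in the WT library and 34.1 in the Vsir-/- library), followed by Other R2 (9.88 and 6.22). R1 (4.16 and 5.01), M2-like R2 (3.87 and 2.48), and NK cells (3.92 and 1.70) had lower ratios, which overlapped in the WT library. B cells were the only one of these clusters below 1 (0.0667 and 0.429). Between the libraries the ratio was lower in Vsir-/- M2-like R2 by a log2 change of −0.64 (−0.85 to −0.43) and in Vsir-/- Other R2 by −0.67 (−1.20 to −0.14). In R1 it changed by 0.27 (−0.03 to 0.56) and in neutrophils by −0.11 (−1.11 to 1.02), and neither interval excluded 0. It changed by −1.21 (−2.54 to 0.21) in NK cells, where the Vsir-/- library had 17 UMIs of activating receptors and 10 of Fcgr2b. In the B cell cluster it changed by 2.68 (1.42 to 3.92), with 15 UMIs of activating receptors and 35 of Fcgr2b in the Vsir-/- library. Of these, 11 UMIs of activating receptors and 23 of Fcgr2b lay in cells without a Cd79a UMI. A single cell held 8 of the 9 Fcgr3 UMIs. Both libraries of a cluster share 1 denominator gene, so a change in Fcgr2b alone moves the ratio. Without B or T cell UMIs the ratios of the WT and Vsir-/- libraries were 4.00 and 2.50 in M2-like R2, 11.8 and 5.94 in Other R2, and 4.73 and 4.96 in R1. Without the C1q-bearing cells they were 3.89 (3.58 to 4.23) and 3.08 (2.64 to 3.61) in M2-like R2. These separate intervals overlapped, which does not decide whether the change exceeded counting error, and an interval of the change is not given here.

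**Figure D4:**
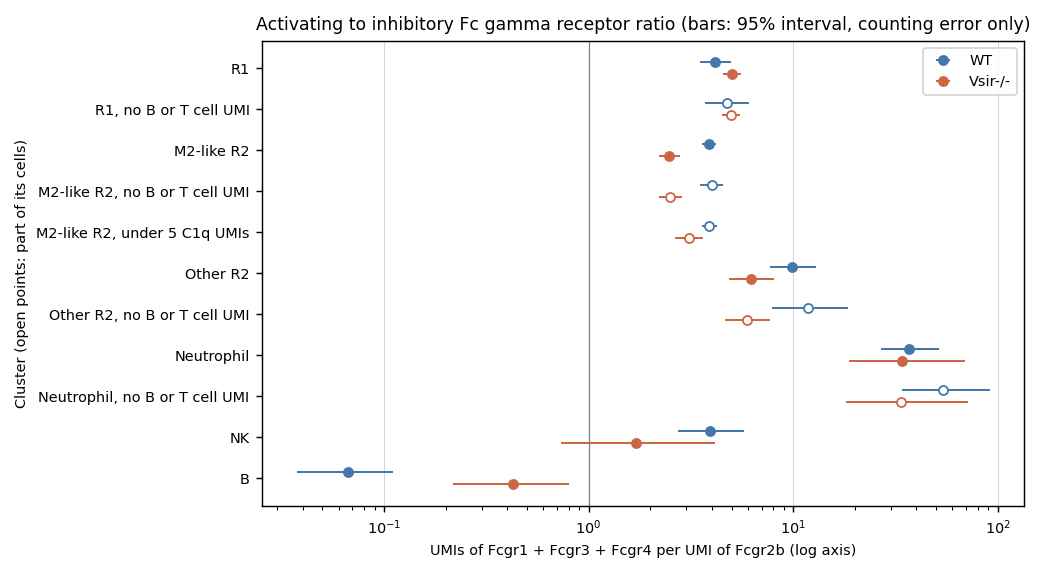
UMIs of the activating receptors Fcgr1, Fcgr3, and Fcgr4 per UMI of Fcgr2b (log axis) by cluster and library, with 95% intervals for counting error. Open points use part of the cells of a cluster, as labeled. Neutrophils lie above 30, B cells lie below 1, and the Vsir-/- point lies below the WT point in both R2 clusters.

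Outside the myeloid clusters the adaptors were also found in EM-like T cells. Among EM-like cells of the CD8+ lineage, Fcer1g was at 1177 CPM in the WT library and at 139 CPM (23 UMIs in 28 cells) in the Vsir-/- library, and Tyrobp at 679 and 114 CPM. In these 28 cells a single cell held 12 of the 23 Fcer1g UMIs, and a single cell held 13 of the 19 Tyrobp UMIs. Among those of the CD4+ lineage, Fcer1g was at 880 and 201 CPM and Tyrobp at 586 and 135 CPM. These UMIs went with transcripts of 5 genes used here to mark NK cells. Whether the cells with such transcripts were NK cells or T cells was not tested. A UMI of Ncr1, Klrb1c, Klre1, Klra8, or Eomes, a list chosen after the values were seen, was present in 182 of 197 CD8+ cells of the WT library and 13 of 28 of the Vsir-/- library. For the CD4+ cells these numbers were 261 of 489 and 58 of 244. In the CD4+ cells without such a UMI, Fcer1g was at 66.5 CPM in the WT library and 14.5 CPM in the Vsir-/- library, whereas it was at 1504 and 745 CPM in the cells with one. The WT cells with an NK cell UMI held 96.7% of the Fcer1g UMIs of their cluster. In the CD8+ cells without one Fcer1g was at 188 and 50.9 CPM, from 9 and 5 UMIs. The separate intervals overlapped, and an interval of the ratio is not given here. In non-EM-like CD4+ T cells of the Vsir-/- library, Fcgr2b had 44 UMIs in 33 cells, of which 28 had no T cell receptor or CD3 UMI and 26 had no Ptprc UMI.

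**Figure D5:**
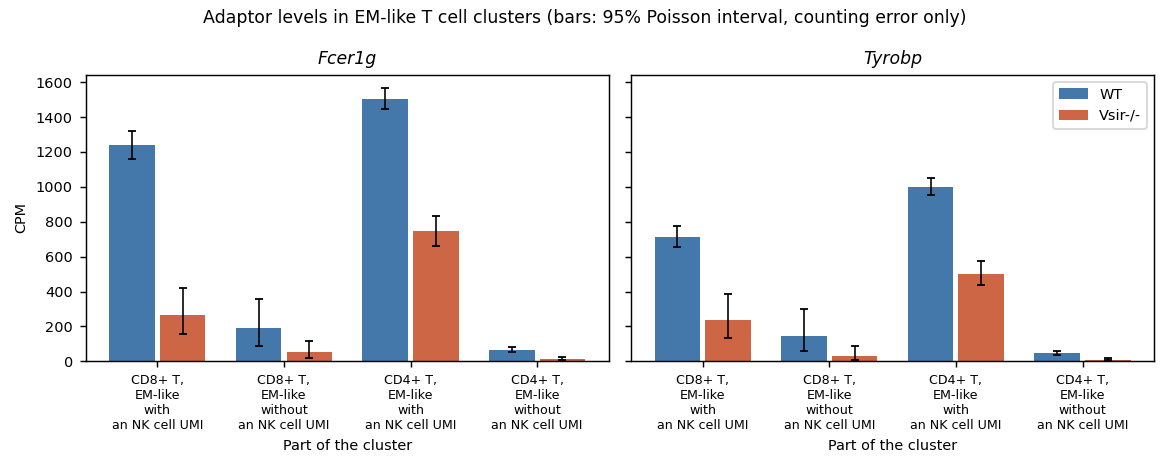
Fcer1g and Tyrobp (CPM) in EM-like CD8+ and CD4+ T cells of the WT (blue) and Vsir-/- (red-orange) libraries, split by the presence of a UMI of 5 genes used here to mark NK cells. Bars are pooled values of 1 library with 95% Poisson intervals. Levels were higher in cells with an NK cell UMI, and among these the WT library was higher (1238 and 266 CPM of Fcer1g in EM-like CD8+ T cells). A single cell held 12 of the 23 Fcer1g UMIs of all EM-like CD8+ T cells of the Vsir-/- library.

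The other genes of the pathway were described by 5 lists over the 4 myeloid clusters, with counts to be read against the shares of all genes given above for each cluster. In cells without a B or T cell UMI, the shares of all genes at least 2-fold higher and lower were 18.2% and 8.9% in R1, 8.81% and 4.63% in M2-like R2, 8.79% and 5.87% in Other R2, and 13.8% and 6.32% in neutrophils. Of 28 genes that act downstream of the ITAM (Src family kinases, adaptors, phospholipases, and PI3K subunits), 25 were kept in R1 with 0 at least 2-fold higher and 2 lower, and 27, 24, and 25 were kept in M2-like R2, Other R2, and neutrophils with 0 higher and 3, 2, and 7 lower. In cells without a B or T cell UMI, 22, 23, 21, and 19 were kept in R1, M2-like R2, Other R2, and neutrophils, with 0, 1, 0, and 0 higher and 3, 0, 0, and 4 lower. Pik3cd, the PI3K subunit of leukocytes, was lower in R1 (105 and 49.96 CPM, −1.07, −1.55 to −0.59) and Other R2 (110.1 and 66.0 CPM, −0.74, −1.23 to −0.27). It was also lower in R1 cells without a B or T cell UMI (102 and 48.5 CPM), whereas in such Other R2 cells the interval included 0 (−0.39, −1.02 to 0.24). Some genes of this list that were far lower are T cell genes, such as Cd247 in neutrophils (22.6 and 1.29 CPM) and Lat in M2-like R2 (22.8 and 2.39 CPM). The part of the lymphocyte UMIs of the WT library in these values was not tested.

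Of 17 genes of inhibitory signaling, all were kept in each myeloid cluster, with 1, 2, 1, and 1 at least 2-fold higher and 3, 0, 2, and 0 lower in R1, M2-like R2, Other R2, and neutrophils. Without B or T cell UMIs, 17, 17, 15, and 14 were kept, with 1, 2, 1, and 1 higher and 2, 0, 0, and 0 lower. Lilrb4a, which encodes an inhibitory receptor with tyrosine-based motifs, was at least 2-fold higher in all 4. It had 82.0 and 243 CPM in R1 (1.57, 1.16 to 1.99), 45.8 and 245 CPM in M2-like R2 (2.42, 2.17 to 2.67), 39.8 and 256 CPM in Other R2 (2.69, 2.24 to 3.16), and 130.2 and 402 CPM in neutrophils (1.62, 1.40 to 1.85). In cells without a B or T cell UMI the log2 ratios were 0.99, 2.37, 1.90, and 1.52. Lilrb4a has a close paralog beside it in the genome, and how the counting shared reads between them is not given in the sources used here. Ptpn22, a phosphatase that restrains lymphocyte receptor signaling, was lower in R1 (76.3 and 19.99 CPM), M2-like R2 (64.6 and 32.2 CPM), and Other R2 (74.9 and 27.2 CPM). Without B or T cell UMIs the ratios were −1.66, −0.58, and −0.59, the last with an interval that included 0 (−1.59 to 0.41).

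Among receptors that use Tyrobp, 16 of 24 were kept in R1 (2 higher and 5 lower), 22 in M2-like R2 (3 and 4), 15 in Other R2 (0 and 2), and 17 in neutrophils (0 and 5). Without B or T cell UMIs, 13, 18, 14, and 15 were kept, with 1, 1, 0, and 0 higher and 2, 2, 3, and 3 lower. Trem2, a lipid receptor of macrophages, was higher in R1 (25.9 and 93.7 CPM, 1.85, 1.15 to 2.65) and M2-like R2 (56.5 and 126 CPM, 1.16, 0.89 to 1.43). In R1 cells without a B or T cell UMI it had 1 UMI in the WT library and 145 UMIs in the Vsir-/- library (4.56, 2.06 to 9.88). Of 16 measured receptors that use Fcer1g, 7 were kept in R1 (2 higher and 0 lower), 12 in M2-like R2 (3 and 2), 10 in Other R2 (2 and 2), and 11 in neutrophils (0 and 3). Without B or T cell UMIs, 4, 9, 6, and 7 of these were kept, with 1, 2, 1, and 0 higher and 1, 0, 1, and 1 lower. Clec4n, which encodes the fungal receptor Dectin-2, was higher in R1 (15.8 and 56.8 CPM, 1.84, 0.94 to 2.90), M2-like R2 (26.2 and 75.2 CPM, 1.52, 1.15 to 1.90), and Other R2 (110.1 and 228 CPM, 1.05, 0.72 to 1.38), although the last was 0.03 (−0.34 to 0.41) in cells without a B or T cell UMI. Lilra5, an activating receptor of myeloid cells, was lower in R1 (417 and 274 CPM, −0.61, −0.83 to −0.39). Csf2rb, the shared chain of the GM-CSF, IL-3, and IL-5 receptors, was lower in neutrophils (276 and 153 CPM, −0.85, −1.14 to −0.57).

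Of 13 other receptors that bind immunoglobulin, 6, 6, 6, and 5 were kept in R1, M2-like R2, Other R2, and neutrophils, with 0 higher and 4, 4, 4, and 3 lower. Without B or T cell UMIs only 2, 2, 1, and 1 were kept, with 0 higher and 1, 0, 0, and 0 lower. The lower genes included Fcmr, the IgM receptor of B cells (161 and 1.87 CPM in R1). Fcgrt, the neonatal Fc receptor that rescues IgG from degradation, was higher in R1 (118 and 195 CPM, 0.72, 0.37 to 1.09) and M2-like R2 (25.3 and 43.0 CPM, 0.77, 0.32 to 1.21). In R1 cells without a B or T cell UMI it was level (192 and 195 CPM, 0.03, −0.42 to 0.50).

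Likeness of pattern was measured as Spearman's rho over 29 sums of a cluster and library, among 11262 genes with at least 200 UMIs. These points share libraries and depth, so the values are a description. Fcer1g and Tyrobp were each among the 3 genes most like the other (0.92). Fcgr2b was most like Pld4 (0.94), an endolysosomal nuclease. Fcgr1 was most like Pid1 (0.89), Klra2 (0.89), and Sirpa (0.88), the last of which is the macrophage receptor for the CD47 signal against phagocytosis. Genes close to Fcgr3 included Tgfbi (0.89) and Klra2 (0.88), and Fcgr4 was most like the cation channel gene Trpm2 (0.88). Tyrobp was most like Itgam (0.93), which encodes CD11b. Syk was most like Themis2 (0.89) and also close to the Src family kinase gene Lyn (0.88). Among the 4 receptors themselves, rho was 0.85 for Fcgr1 and Fcgr3 and 0.66 for Fcgr1 and Fcgr4.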

How the data were processed

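The authors processed the 10x 3′ libraries of NTN-induced mice with Cell Ranger (version 3.1.0) and merged, clustered, and named the cells with Seurat (version 3.2.3) in R (version 4.0.3). The submitters' notes list mm9 with no role, and how doublets were treated is not given in the sources used here. Raw UMI counts per gene and cell were the deposited values. The deposited mitochondrial percent of each cell, at most 10, was used only for an alternative limit of 5%.

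For each cluster of each library the counts were added up and divided by the total of its cells to give CPM. Poisson, Clopper-Pearson, and exact conditional intervals were at the 95% level and cover counting error only. With 1 library per genotype, no p-value was computed. Genes with at least 20 UMIs over both libraries, in clusters with at least 20 cells in each, were compared, with 0.5 UMIs added for the 2-fold limit. Shares of cells were also taken after thinning each cell to 1000 UMIs, leaving out shallower cells. Only the log2 ratios between the libraries, their exact conditional intervals, and the 2-fold limit were tested on simulated counts. The members and gene lists were chosen with earlier results of these data known. All 7 members were counted in every cluster, though not every value is given here. From each list and myeloid cluster, the 2 genes with the highest and the 2 with the lowest ratio among those with at least 50 UMIs could be named, along with the 3 genes most like each member, Vsir, Ptprc, and cell type markers. A gene that this rule selects is not reported here. Software was scipy 1.17.1, numpy 2.4.6, matplotlib 3.10.9, and pandas 2.3.3 under Python 3.11.15. Alternatives changed the cells kept, depth, weighting, denominator, centring, filter, and fold limit.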

Additional observations from a re-analysis of the deposited data

Results flagged for a closer look

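The libraries differed in opposite directions in different clusters for 4 pairs, and none of these differences was tested, because each genotype has 1 library. For Fcgr1 the log2 ratio was 0.43 in R1 and −3.08 in neutrophils, a gap of 3.51, and the neutrophil value rested on 27 and 1 UMIs. For Fcer1g the ratios in B cells and NK cells were 2.43 and −0.31, a gap of 2.74, and for Tyrobp they were 1.90 and −0.39, a gap of 2.29. For Syk they were 0.68 in NK cells and −1.45 in B cells, a gap of 2.13. In the 44 Vsir-/- B cells with a Cd79a UMI the log2 ratios were −1.21 (−3.11 to 0.19) for Fcer1g and −0.11 (−0.95 to 0.62) for Tyrobp. These rested on 4 and 16 UMIs in the Vsir-/- cells, and both intervals included 0. In R1 cells without a B or T cell UMI the ratio of Fcgr1 was −0.30.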

How the results depend on the processing

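No paired analysis was possible because each genotype has 1 library, and for the same reason no library could be left out. Over the 6 clusters, 37 member ratios were recomputed. Keeping only cells with a Ptprc UMI or leaving out the cell with the most UMIs kept all 37 within their counting intervals, as did taking tubule and mitochondrial UMIs out of the denominator (36 on the same side of 0), whereas thinning to 1000 UMIs kept 16 of 33 and leaving out cells with UMIs of the other lineage (lymphocyte transcripts in myeloid clusters, myeloid transcripts in NK and B cells) kept 15 of 35, with 22 on the same side of 0. Without the latter cells the median of the members was −0.26 in R1, −0.27 in M2-like R2, −0.12 in Other R2, −0.37 in neutrophils, −0.05 (−0.0502) in NK cells, and 0.39 in B cells; no member passed 2-fold in neutrophils or NK cells (0 and 0), and the activating to inhibitory ratio of WT cells was 53.9 in neutrophils and 1.91 in NK cells. After thinning the medians were −0.01 (−0.00648) in M2-like R2, −0.14 in Other R2, −0.16 in neutrophils, 0.04 (0.0404) in NK cells, and 1.05 in B cells, 0 members passed 2-fold in Other R2 and neutrophils, and the ratio was 3 in WT R1, 3.37 and 2.18 in WT and Vsir-/- M2-like R2, 113 in WT neutrophils, and 0.026 in WT B cells. With cells weighted equally the medians were 0.15 in R1, −0.20 in NK cells, and 1.60 in B cells. At a mitochondrial limit of 5%, 0 members passed 2-fold in Other R2 and NK cells, the median in B cells was 0.80, and the ratio in Vsir-/- B cells was 0.158. Without the cell with the most UMIs, 0 members passed in NK cells and the median in B cells was 0.66, and centring on all genes also left 0 in NK cells. With a filter of 1 UMI, 2 members passed in NK cells (median of 0.69) and 6 in B cells (median of 1.90), and with 100 UMIs, 0 passed in neutrophils and NK cells. At 1.5-fold, 2 passed in R1, 1 in M2-like R2, 2 in Other R2, and 2 in NK cells. Under 5 C1q UMIs, a limit chosen after seeing the data, the ratio in Vsir-/- M2-like R2 was 3.08. Apart from what these selections remove, the cause was not tested. Few counts limit Fcgr1 in neutrophils and every receptor in Vsir-/- NK and B cells, with at most 14 and 35 UMIs of a receptor. In the WT library Fcgr3 had 135 UMIs in NK cells and Fcgr2b had 240 UMIs in B cells, and the other receptors had fewer. The part of depth in these counts was not tested.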

Other observations

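Lilrb4a, the gene of the inhibitory list with the highest ratio among those with at least 50 UMIs in each of the 4 myeloid clusters, lies at chr10:51490956-51496611 and Vsir at chr10:60346851-60372684 (GRCm38, GENCODE M21), 8.85 Mb apart on chromosome 10. In the B cell cluster Lilrb4a had 2 UMIs in the WT library and 19 UMIs in the Vsir-/- library (log2 ratio of 5.98, 3.93 to 9.12), and in NK cells it had 5.59 and 15.8 CPM (1.498, 0.11 to 2.73). Only 44 of the 88 Vsir-/- cells of the B cell cluster had a Cd79a UMI, and which cells held the 19 UMIs is not given here. Whether the position of Lilrb4a near Vsir has a part in these differences was not tested. The cluster called NKT was present in the WT library only (94 cells), with 169 CPM of Syk and 1448 CPM of Tyrobp. In it 10 NK cell markers summed to 12779 CPM, 10 B cell markers to 9209 CPM, and 10 T cell markers to 1864 CPM. The part of B cell transcripts in its Syk level was not tested.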
